A study of Homo sapiens with 23 samples.

Results

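ABC transporter genes encode a large family of ATP-driven membrane transporters, and 46 of them were examined here for the chromatin loops that reached them. A loop was a listed contact between 2 bins of 5 kb. It was counted at a gene when either bin overlapped the gene body (hg38) widened by 10 kb on each side, and all 46 genes were found among 20037 protein-coding genes of the RefSeq table. Loops at these genes numbered 56 of 7075 in the library labelled T0 and 97 of 9591 in the library labelled T30. A loop that touched several of the genes was counted once in these sums.

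Both lists came from T47D cells and progesterone receptor HiChIP. T47D is an established human breast cancer cell line that carries this receptor. HiChIP ligates DNA ends that lie close in the nucleus and enriches the ligated fragments with an antibody. Listed contacts therefore hold proximity and antibody enrichment together, and these were not separated. The T0 title names the receptor alone. The T30 title reads PR5020, which the labels do not explain; the treatment protocol names R5020, a synthetic progestin, and progesterone. All cells were kept in hormone-depleted and then serum-free medium before exposure, per the protocols. The labels give no time unit and no dose for either library. Each group was 1 library, so no difference below has a replicate check, and the cell identity could not be checked because loop lists carry no expression values. Intervals cover counting error alone and treat loops as independent although loops share ends, so they may be too narrow. The lists differed in stringency: the largest listed p-value was 0.000233 in T0 and 2.84e-05 in T30, and the shortest listed span was 10 kb in T0 against 20 kb in T30. The contacts of listed loops came to 127457 and 135538, which is not the depth of either library; that depth is unknown.

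ABC transporters couple ATP hydrolysis at paired nucleotide-binding domains to the movement of lipids, peptides, ions or drugs through a membrane. The A subfamily mostly moves lipids. The B subfamily holds the drug pump ABCB1, peptide transporters such as TAP1 and TAP2, and mitochondrial proteins. The C subfamily exports conjugated organic anions and also holds the chloride channel CFTR and the sulfonylurea receptors. The D subfamily serves fatty acid and cobalamin transport in peroxisomes and lysosomes, and E and F proteins are soluble ATPases linked to ribosomes. G members handle sterols, and ABCG2 is a drug pump. Several of these pumps are known for drug resistance in breast cancer cells.

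Start sites were known for 38 of the 46 genes from RefSeq promoter windows (GRCh38.p14), and no such window was matched for ABCA4, ABCA8, ABCB4, ABCB5, ABCC1, ABCC3, ABCC8 or ABCG1. A start site lay inside a loop bin for ABCA2, ABCA5 and ABCC5 in T0, which is 3 of 38 genes, and over all 15843 protein-coding genes with a window the share was 9.58%. In T30 the same 3 genes plus ABCA1 and ABCC4 had a start in a loop bin, 5 of 38, beside 9.93% of all such genes. The members' counts were thus near the background. The 250 bases before the start are shown for the 4 of these 5 genes that have a single start window, because the loop bins contained these promoters: ABCC5 with loops there in both libraries, ABCA1 and ABCC4 with loops there in T30 alone, and ABCA5 of the chromosome 17 cluster with 1 loop there in each. All 4 genes lie on the minus strand and each sequence reads 5′ to 3′ towards the gene. Capitals mark a TATA box (TATAAA, read on the gene's strand) and, in ABCA1, a match to a direct repeat of the type bound by liver X receptors (TGACCNNNNNTNACCT, both strands). ABCC5 is at chr3:184017885-184018134, ABCA1 at chr9:104928156-104928405, ABCC4 at chr13:95301452-95301701 and ABCA5 at chr17:69327134-69327383.
ABCC5: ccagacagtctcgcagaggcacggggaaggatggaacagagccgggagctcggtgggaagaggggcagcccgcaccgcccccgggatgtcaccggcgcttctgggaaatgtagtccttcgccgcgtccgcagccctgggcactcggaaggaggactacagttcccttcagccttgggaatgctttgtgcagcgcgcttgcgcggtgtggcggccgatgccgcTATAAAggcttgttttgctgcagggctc
ABCA1: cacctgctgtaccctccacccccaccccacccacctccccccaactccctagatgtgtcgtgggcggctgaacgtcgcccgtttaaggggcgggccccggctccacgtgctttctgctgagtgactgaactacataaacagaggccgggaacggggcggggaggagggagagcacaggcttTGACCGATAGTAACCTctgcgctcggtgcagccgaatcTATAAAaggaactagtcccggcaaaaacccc
ABCC4: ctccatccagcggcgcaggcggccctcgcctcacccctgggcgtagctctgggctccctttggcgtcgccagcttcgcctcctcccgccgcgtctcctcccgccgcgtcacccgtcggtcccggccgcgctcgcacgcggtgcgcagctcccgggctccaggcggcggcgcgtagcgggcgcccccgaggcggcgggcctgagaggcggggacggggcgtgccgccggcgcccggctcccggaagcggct
ABCA5: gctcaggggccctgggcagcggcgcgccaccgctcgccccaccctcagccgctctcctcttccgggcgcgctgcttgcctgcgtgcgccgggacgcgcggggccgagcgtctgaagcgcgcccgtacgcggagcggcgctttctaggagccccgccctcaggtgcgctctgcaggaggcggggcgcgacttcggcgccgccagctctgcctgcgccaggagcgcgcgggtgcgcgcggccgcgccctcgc

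The 4 upstream sequences differed in composition. GC made up 64.8% of the ABCC5 bases and 61.6% of the ABCA1 bases, against 80.4% for ABCC4 and 79.2% for ABCA5, where the median over all windows was 58%. CG pairs numbered 21, 16, 42 and 42 in the same order. ABCC5 and ABCA1 had a TATA box that began 28 and 31 bases before the start, and the other pair had none. ABCA2 has more than 1 start window in its bin and is not shown; its upstream sequences were 65.2% and 85.6% GC, without a TATA box. A TATAAA match was present in 6.8% of all 35116 upstream windows. The direct repeat in ABCA1 began 69 bases before the start, and its letters occurred in 0.0797% of all upstream windows; both of these motifs were chosen after the sequences had been read. The palindromic element that the progesterone receptor is known to bind (GNACANNNTGTNC, both strands) was not found in any of the 57 windows of members, where 0.39% of all windows held it. A single arm of that element was searched in a stricter form (AGAACA, both strands), with its open letter fixed and an A added in front. This form occurred in 10 of the 57 member windows of 300 bases, or 17.5%, beside 14.8% of all windows. It was in none of the upstream bases shown.

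More ABC transporter genes were at a loop in T30 than in T0. In T0, 17 of the 46 genes (37.0%) had a loop, and 27.2% of all protein-coding genes did. In T30, 24 genes (52.2%) had one, beside 32.1% of all genes. At 16 genes each library listed some loop, though often not the same one, and at 1 gene, ABCC1, T0 alone did. ABCB1, ABCB8, ABCC8, ABCC11, ABCC12, ABCG1, ABCG2 and ABCG4 had a loop in T30 alone. The other 21 genes had none in either: ABCA6, ABCA7, ABCA8, ABCA12, ABCA13, ABCB5, ABCB6, ABCB11, TAP1, TAP2, ABCC6, ABCC9, CFTR, ABCD2, ABCD3, ABCD4, ABCE1, ABCF1, ABCF2, ABCG5 and ABCG8. The count depended on stringency and on the flanks. With a q-value under 0.01, 15 genes were at a loop in each list, beside 19.4% and 21.9% of all genes. Without widening, 15 and 18 genes did, beside 19.7% and 23.4%.

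The counts were also taken within classes of gene length. Among genes of 100 kb or more, 6 of 15 members were at a T0 loop and 7 at a T30 loop, beside 33.5% and 35.2% of all genes of that length. Among those of 25 to 100 kb the members' counts were 8 and 12 of 20, beside 27.8% and 33.2%. Among those under 25 kb they were 3 and 5 of 11, beside 24.8% and 30.3%. The members' T0 shares under 25 kb (27.3%) and from 100 kb (40%) were within about 1 gene of the background. The difference was widest at 25 to 100 kb in T30 (60.0%).

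By distinct partner bins, meaning the bins joined to the widened gene, 7 members had at least 3 more in T30, and 5.6% of all genes did. They were ABCC5, ABCF3, ABCC11, ABCC12, ABCA2, ABCC3 and ABCC8. A loop with both bins in the widened gene counts both as partners, so ABCC8 reached 3 partners in T30 with 2 loops. ABCC11 and ABCC12 are neighbours and drew on the same 6 loops. With genes not widened, 4 members passed this size, ABCC5, ABCC11, ABCA2 and ABCC3, beside 3.95% of all genes. With lists of equal length 6 members did, all but ABCC3, beside 3.45%. ABCC1 alone had at least 3 fewer, beside 2.82% of all genes; with genes widened by 25 kb, 4 members did. At that width 4.05% of all genes did, and the other 3 were ABCA3, ABCB5 and ABCC6. The widened ABCC6 then took in the bin at 16125001, where 7 of the T0 loops of its neighbour ABCC1 met. The median change was 0 both for the members and for all genes.

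**Figure D1:**
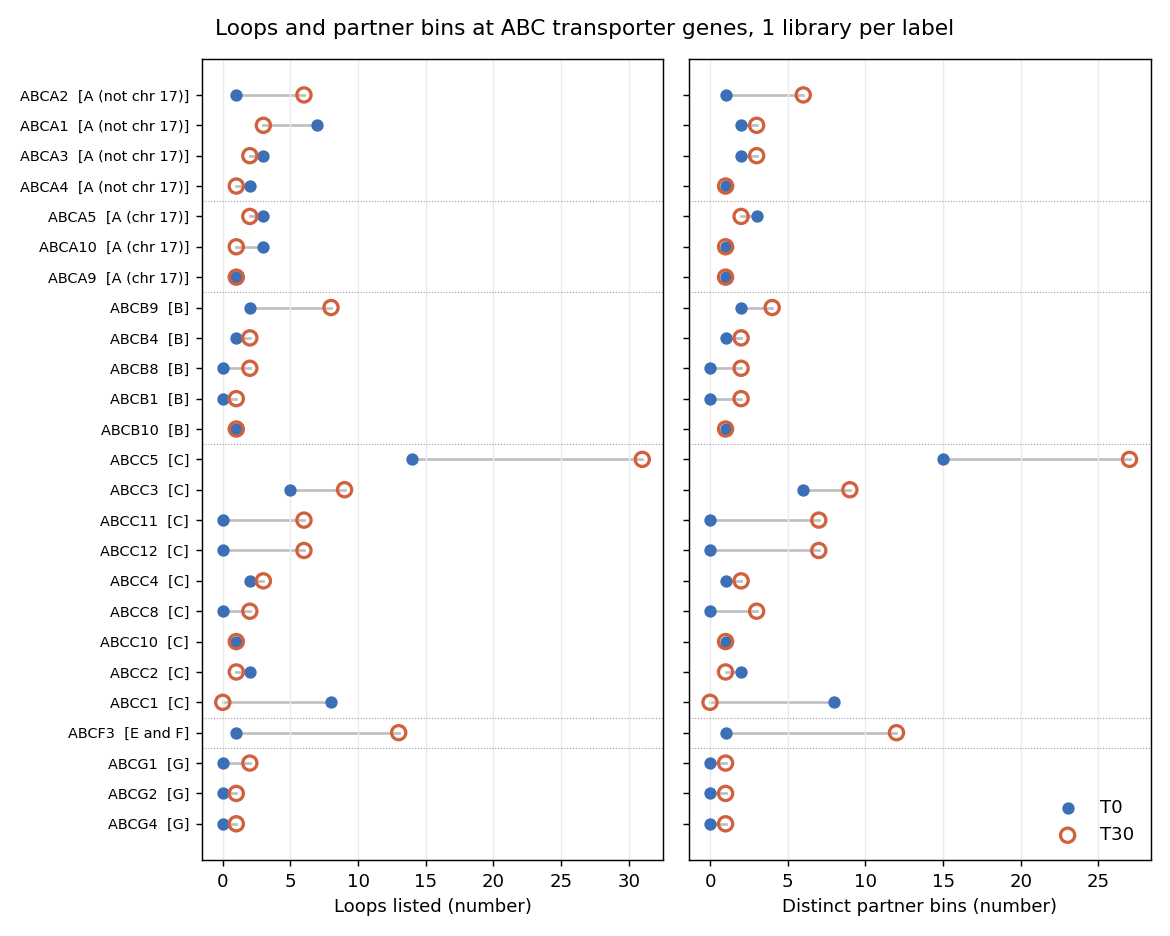
Loops listed (left, number) and distinct partner bins (right, number) at each of the 25 members with a loop in either library, grouped by subfamily in brackets. Filled points are T0 and open points T30, with 1 library each; ABCC5 goes from 14 to 31 loops, and ABCC1 from 8 to 0.

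Summed over the family, T30 listed 1.73 loops per T0 loop (exact 95% interval 1.23 to 2.45), where all listed loops gave 1.36 (1.31 to 1.40), a value inside the family's interval. Without ABCC5 and ABCF3, which lie close together on chromosome 3, the family had 41 loops in T0 and 55 in T30, or 1.34 per T0 loop (0.879 to 2.06). Leaving out these genes was a choice made after the values were seen. Contacts of the family's loops summed to 1015 in T0 and 1510 in T30, and to 657 and 768 without the pair.

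The subfamilies differed in how many loops they held. The C subfamily had the most loops in both libraries, with 32 loops at 6 of 12 genes in T0 and 53 at 8 in T30, or 19.8 and 32.8 loops per Mb of widened gene. ABCC5 alone had 14 of these in T0 and 31 in T30, so the C counts, densities and ratio rest in large part on that gene. The A genes outside chromosome 17 had 13 and 12 loops at 4 of 7 genes each time, or 10.7 and 9.91 per Mb. The chromosome 17 cluster had 6 and 3 loops at 3 of its 5 genes (11.2 and 5.60 per Mb). The B subfamily had 4 loops at 3 of 10 genes in T0 and 14 at 5 in T30 (4.30 and 15 per Mb). Of the E and F genes ABCF3 alone had loops, 1 and 13 (6.46 and 84.0 per Mb), so that per Mb this short group stood above C in T30. The G subfamily had none in T0 and 4 loops at 3 of 5 genes in T30, and the D subfamily had none in either library. The T30 per T0 ratio was 1.66 for C (1.05 to 2.65), 0.923 for A outside chromosome 17 (0.385 to 2.19), 0.500 for the cluster (0.0809 to 2.34) and 3.50 for B (1.10 to 14.6). These 4 intervals overlapped each other and contained the ratio of all listed loops. The ratio for E and F was 13 (1.95 to 552), all of it from ABCF3.

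Loops at the family were shorter in T30, as in the whole lists. The family's median span was 237.5 kb in the T0 list, and in the T30 list it was 80 kb, beside 190 and 80 kb for all loops. Loops under 100 kb made up 17.9% of the family's loops in T0 and 56.7% in T30, beside 26.4% and 57.2% of all loops. In A genes outside chromosome 17 the median went from 310 to 45 kb, in B from 177.5 to 65 kb, in C from 217.5 to 105 kb and in the cluster from 312.5 to 195 kb. The cluster held no loop under 185 kb in either library. Spans of 500 kb or more numbered 3 in T0, all at ABCA1, and 5 in T30, of which 1 was at ABCA1 and 4 at ABCC11. Contacts per loop had a median of 16 in T0 (8 to 60) and 14 in T30 (8 to 64), beside 14 and 13 for all loops.

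**Figure D2:**
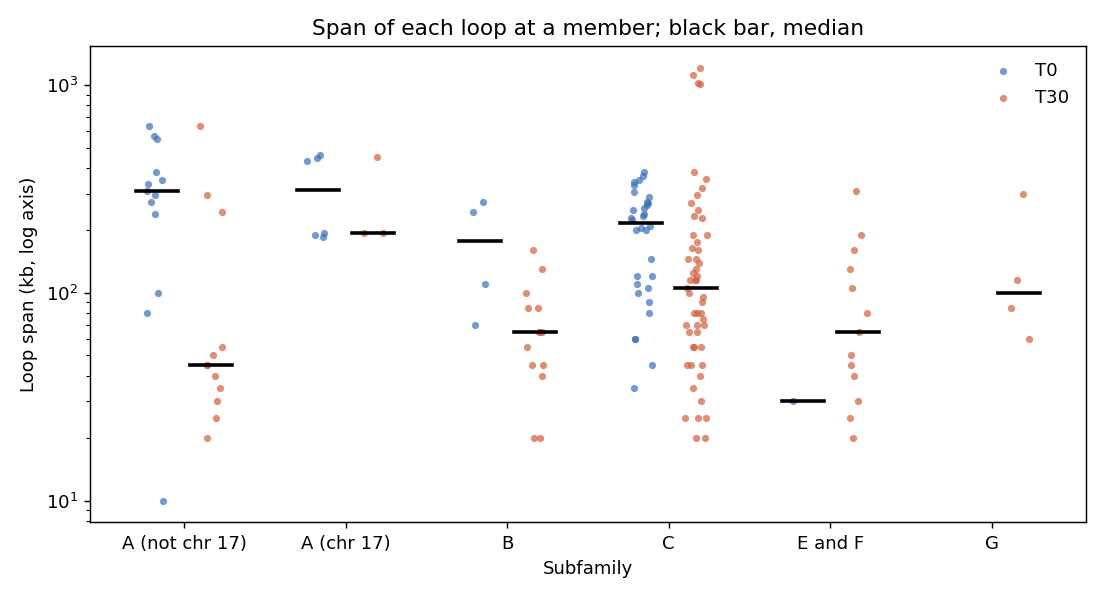
Span of each loop (kb, log axis) by subfamily, with T0 points in blue, T30 points in red and a black bar at the median. The T30 median lies below the T0 median in A, in the chromosome 17 cluster, in B and in C; E and F hold a lone T0 loop of 30 kb, and G has no T0 loop.

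Among the drug and anion exporters, ABCC5 (chromosome 3, 183919934 to 184017884), which exports cyclic nucleotides and nucleotide analogs, had the most loops of the family. In T0 it had 14 loops, 298 contacts and 15 partner bins, and in T30 it had 31 loops, 540 contacts and 27 partner bins. T30 was higher by each of these counts. The difference of 12 partner bins was 6 when the T30 list was shortened to the length of the T0 list by lowest q-value. Many of the added loops were inside the gene: loops with both bins in the gene body numbered 2 in T0 and 10 in T30. Loops within the gene are short, and short loops were also a larger part of the whole T30 list. Those under 100 kb made up 26.4% of all listed loops in T0 and 57.2% in T30. The bin at 183990001 in the gene body had no loop in T0 and 8 loops with 204 contacts in T30; within 10 kb of it the numbers were 1 and 11. The strongest loop of the family in T30 joined this bin to the one at 184010001 with 64 contacts over 20 kb, and the next joined 183970001 to 183990001 with 48. In T0 the strongest loop with both bins in the gene joined 183925001 to 183985001 with 31 contacts. The gene's loops had a median span of 227.5 kb in T0, against 115 kb in T30.

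The bin with the ABCC5 start site, at 184015001, had 4 loops with 101 contacts in T0 and 5 with 76 in T30. The bin at 183915001, at the other end of the gene, had 3 loops in each list, with 61 and 62 contacts. The strongest loop of the start-site bin at 184015001 reached, in both libraries, the bin at 183895001. That bin lies beyond the far end of the gene and outside any protein-coding gene, and the loop had 35 contacts in T0 and 23 in T30. Partner bins of the gene in both lists included that at 184285001 in ECE2, an endothelin-processing protease gene (17 and 13 contacts from 183905001). Loops also reached EIF2B5, a translation initiation factor subunit gene, in both. Loops that ended in AP2M1, a clathrin adaptor gene, were listed 3 times in T30 and not in T0. The surroundings moved in the same direction: within 500 kb of ABCC5 there were 79 loops in T0 against 149 in T30.

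ABCF3 (184186199 to 184194005), a soluble ATPase of the F subfamily, lies in that same neighbourhood. In T0 it had 1 loop, of 60 contacts, and in T30 it had 13 loops, of 222 contacts together. None of these had a bin in the gene body itself. In the T30 list 6 of them met at the flanking bin at 184195001 and 4 at the bin at 184180001 in AP2M1, and 2 also reached ABCC5. The loop listed in both libraries joined 184195001 to the start of VWA5B2 at 184225001. It was the strongest of the family in T0, with 60 contacts, and had 24 in T30. In T30 the strongest at ABCF3 left the same bin for 184215001, outside genes, with 32 contacts. At genes not widened ABCF3 had no partner in either library, and with a q-value under 0.01 its difference of 11 partners was 6.

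**Figure D3:**
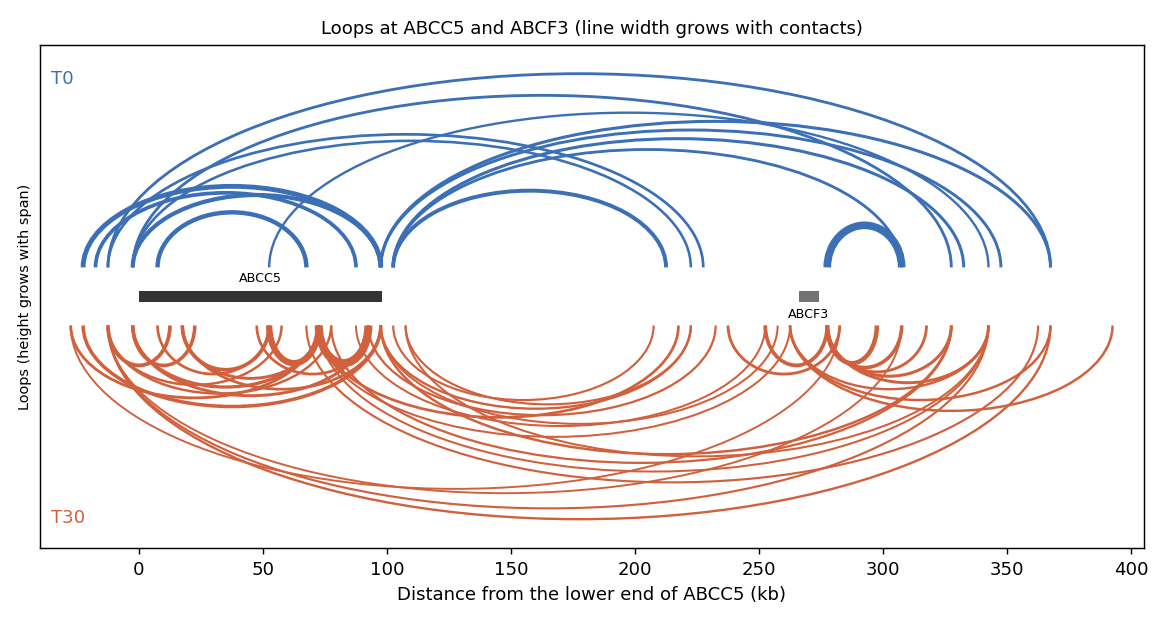
Loops at ABCC5 and ABCF3 by distance from the lower end of ABCC5 (kb), T0 above and T30 below, with arc height growing with span and line width with contacts. T0 has 15 loops, mostly from the ends of ABCC5, whereas T30 has 42, with short arcs inside ABCC5 and around ABCF3.

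ABCC3 (chromosome 17, 50634881 to 50692253), an exporter of glucuronides and bile salts, had 5 loops and 104 contacts in T0, and 9 loops and 135 contacts in T30. Its T0 and T30 loops were much alike in kind: 3 loops lay within the gene in each library, 3 were found in both lists, and the median span was 60 and 65 kb. Its strongest T30 loop joined 50640001 to 50665001 within the gene with 25 contacts. The bin at 50690001, shared with ANKRD40, had 3 loops in each. A loop from there to the start of SPATA20 at 50545001 had 22 contacts in T0 and 17 in T30 at identical bins. Its partners numbered 6 and 9, and that difference of 3 was 0 with a q-value under 0.01 and also with genes widened by 25 kb, and 2 with lists of equal length.

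ABCC1 (chromosome 16, 15949143 to 16143053), which pumps glutathione conjugates and many drugs, showed the opposite picture. It had 8 loops with 111 contacts in T0, each of 10 to 18 contacts, and none in T30. Of these, 7 met at the bin at 16125001 inside the gene. The 8 partners lay 235 to 365 kb away, 5 of them in MYH11, a smooth muscle myosin gene, 2 in CEP20, a centrosomal protein gene, and 1 outside protein-coding genes. The strongest, of 18 contacts each, joined this bin to 15760001 and 15775001. No loop of the T30 list was within 500 kb of the gene, where T0 listed only the same 8. Within 2.5 Mb T0 had 17 and T30 had 3. The neighbour ABCC6, an efflux pump gene of liver and kidney, had no loop in either list.

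ABCC11 (48164819 to 48247539), an exporter of apocrine glands, and its neighbour ABCC12 (48080882 to 48155993) lie further along chromosome 16 and had loops in T30 alone. The same 6 loops, with 64 contacts in all, were counted at both genes, since all 6 used the bin at 48165001, which lies in ABCC11 and in the widened ABCC12. In this set 2 loops were local, one within ABCC11 to 48235001 with 13 contacts and one to 48125001 in ABCC12 with 14. The other 4 spanned 1015 to 1215 kb and had 8 to 12 contacts each, and they reached bins in ITFG1, in NETO2 and outside genes. T0 listed no loop within 2.5 Mb of either gene, so its 0 holds for the region. With genes not widened, ABCC12 kept 1 partner.

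The other C genes had few loops. ABCC2, the canalicular exporter of conjugates, had 2 loops in T0 from the bin at 99845001 on chromosome 10, to CPN1 with 33 contacts and to DNMBP with 20, and 1 in T30 to the same CPN1 bin at 100045001 with 10, from a bin just past the gene. ABCC4, an exporter of cyclic nucleotides and prostaglandins, had 2 and 3 loops. Its T0 loops ran from the gene interior to 95400001 on chromosome 13, with 16 and 11 contacts, and in T30 a loop of 13 contacts left its start bin for 95370001. ABCC8, the sulfonylurea receptor of beta cells, had 0 and 2 loops; 1 of 19 contacts lay within the gene, and the other, of 12 contacts, joined KCNJ11, which encodes its channel partner, to USH1C. ABCC10, a drug exporter, had 1 loop in each library at different bins, with 17 and 14 contacts.

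Among the lipid transporters, ABCA1 (chromosome 9, 104781006 to 104928155), which moves cholesterol and phospholipid to apolipoprotein A-I, had 7 loops with 100 contacts in T0 and 3 loops with 37 contacts in T30. The T0 loops ran from the gene interior or its lower end to a pair of bins only: 4 to 105155001, outside protein-coding genes, and 3 to 105415001 in SLC44A1, a choline transporter-like gene. In T30 the first of these bins kept 1 of the 4, the loop from 104860001 at identical bins, with 26 contacts in T0 and 11 in T30. No T30 loop used the second, but 1 of 9 contacts ended in the adjacent bin, at 105410001. The T30 list added a loop of 17 contacts over 40 kb from the bin that holds the start of ABCA1, at 104925001, which had none in T0. Partner bins numbered 2 and 3.

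ABCA2 (chromosome 9, 137007234 to 137028922), a lipid transporter of endolysosomes, had 1 loop of 10 contacts in T0 and 6 loops with 131 contacts in T30. The T0 loop spanned 240 kb to the bin with the gene's start, and the T30 loops spanned 20 to 55 kb. Among those were a loop of 32 contacts from the start bin at 137025001 to the start of NPDC1, and 3 loops from the bin at 137015001. The wider region moved likewise, from 17 to 60 loops within 500 kb. ABCA3, which loads surfactant lipids in the lung, had 3 and 2 loops; the T0 set included the second strongest loop of the family, of 36 contacts over 10 kb, but its bins lay in RNPS1 beside the gene, and a span of that length is not in the T30 list. ABCA4, the retinoid transporter of photoreceptors, had 2 and 1, with 23 and 9 contacts.

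In the chromosome 17 cluster, 5 related A genes of lipid transport lie side by side in the order ABCA8, ABCA9, ABCA6, ABCA10 and ABCA5. It had 6 distinct loops with 86 contacts in T0 and 3 with 27 in T30. The T0 bin at 68775001, outside protein-coding genes and below ABCA8, was an end of 4 loops. These went to the ABCA9 end at 68970001 (16 contacts) and into ABCA10 at 69205001, 69220001 and 69235001 (13, 11 and 23 contacts). The remaining 2 joined the start bin of ABCA5, at 69325001, and its flank to MAP2K6, a kinase of the p38 pathway, with 12 and 11 contacts. The T30 list held 1 loop of each of these kinds. The ABCA9 loop was at identical bins with 9 contacts, a loop of 8 contacts ran from 68780001 to 69230001 in ABCA10, and a loop of 10 contacts from the ABCA5 start bin reached MAP2K6 at 69520001. ABCA6 and ABCA8 had no loop end in or beside them. Within 500 kb of ABCA10 there were 15 loops in T0 against 3 in T30, and within 2.5 Mb 47 and 33.

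**Figure D4:**
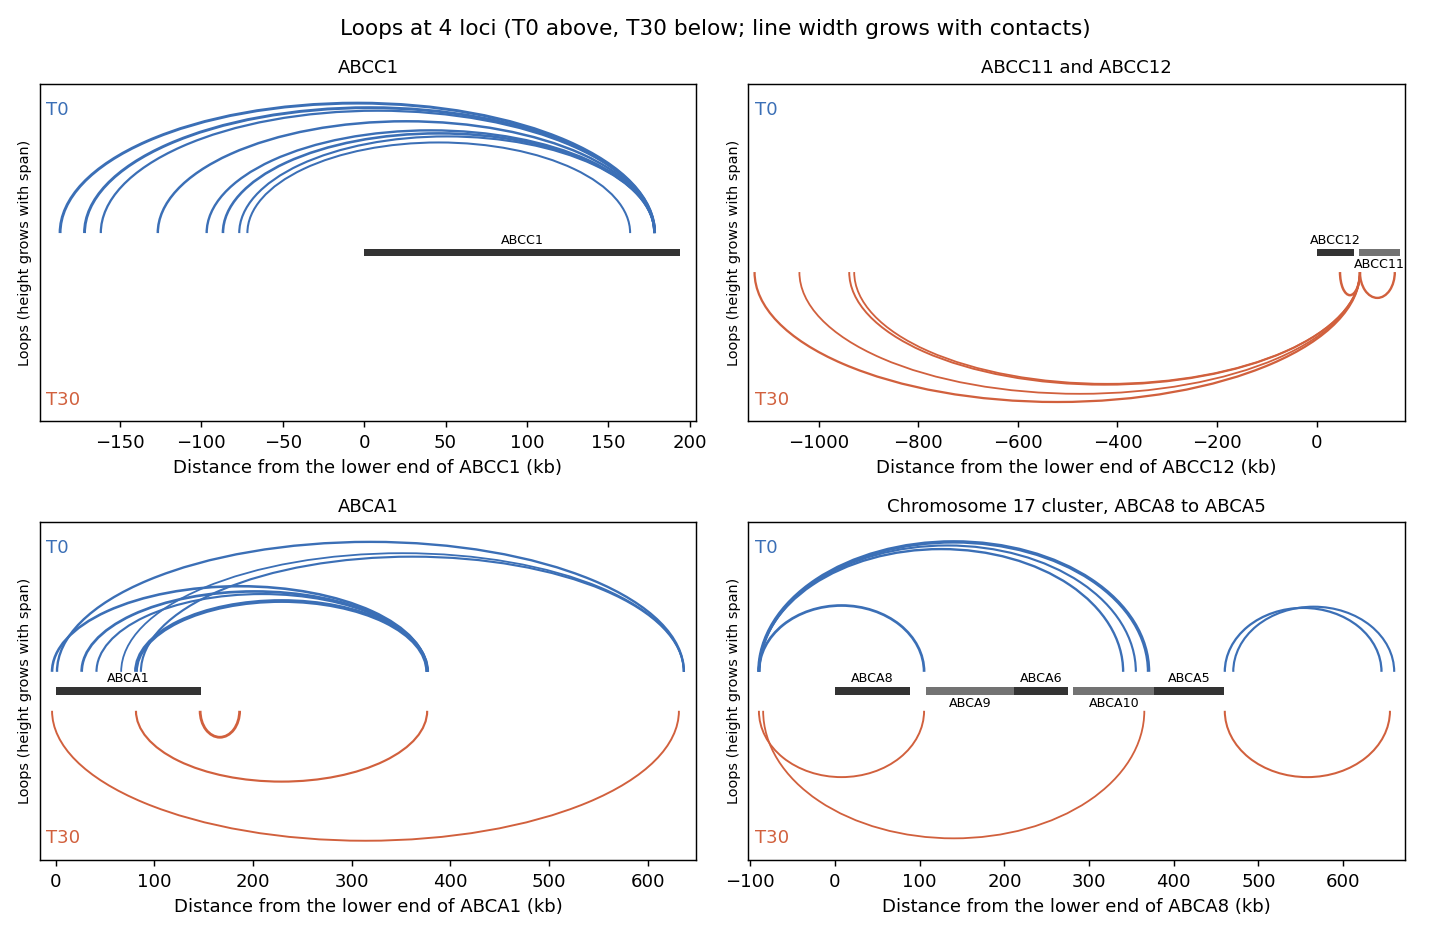
Loops at ABCC1, at ABCC11 and ABCC12, at ABCA1 and at the chromosome 17 cluster, by distance from the lower end of a named gene (kb), T0 above and T30 below, arc height growing with span and line width with contacts. ABCC1 has 8 T0 loops and no T30 loop, ABCC11 and ABCC12 have 6 T30 loops and no T0 loop, and ABCA1 and the cluster have 7 and 6 in T0 and 3 and 3 in T30.

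In the B subfamily, ABCB9 (chromosome 12, 122918610 to 122975114), a lysosomal peptide transporter, had 2 loops with 34 contacts in T0 and 8 with 132 in T30. In T30, 6 of its loops ended in VPS37B, which encodes a subunit of the endosomal sorting machinery, 1 in HIP1R and 1 in CCDC62. The VPS37B bins at 122870001 and 122885001 had 3 loops to the gene each in T30, against 0 and 1 in T0. Although the loops were 4 times as many, the partner bins went from 2 to 4, and the regional count went the other way, with 23 loops within 500 kb in T0 against 16 in T30. ABCB4, which moves phosphatidylcholine into bile, had 1 and 2 loops of 11 to 15 contacts to nearby bins below the gene. ABCB1, the P-glycoprotein drug pump, had none in T0 and 1 of 12 contacts in T30; both of its bins also lie in RUNDC3B. ABCB8 and ABCB10, both mitochondrial, had loops at their flanks only, 0 and 2 at the former and 1 and 1 at the latter. TAP1 and TAP2, which carry antigenic peptides into the endoplasmic reticulum, had none, although 8 loops in T0 and 4 in T30 lay within 500 kb of each.

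The G subfamily was seen in T30 alone and weakly. ABCG1, which passes cholesterol to lipoproteins, had 2 loops of 11 contacts each from 42150001 on chromosome 21 into the gene. ABCG2, the breast cancer resistance protein, had 1 of 10 contacts over 300 kb, and ABCG4, a sterol transporter of the brain, 1 of 12 that lay in its flank. ABCG5 and ABCG8, which form the sterol pump of liver and gut, had none.

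Of the loops at members, 11 of 56 in T0 (19.6%, exact 95% interval 10.2 to 32.4) and 13 of 97 in T30 (13.4%, 7.33 to 21.8) were found in the other list, meaning that at both ends their merged ranges had 1 bp or more in common. All loops gave 22.2% and 16.4%, inside those intervals. Under this rule the recurrent loops were at ABCC5, ABCC3, ABCF3, ABCA1 and ABCA9. Matching the lists one to one gave 12 pairs with a loop at a member on at least 1 side; in 10 of them both loops were at members, and 7 were at identical bins. The T30 to T0 ratio of contacts had a median of 0.572 over these pairs, beside 0.667 over all 1389 pairs of the lists. Each pair was tested against the latter ratio (exact binomial, two-sided, with Benjamini-Hochberg adjustment over all pairs), which compares 2 libraries and not 2 conditions. The test called 0 of the 12 pairs, where 1.66% of all pairs were called; at an unadjusted p under 0.05, 1 of the 12 and 102 of all pairs passed. The pair of lowest p was that of ABCF3 to VWA5B2, with 60 and 24 contacts (log2 of the ratio after scaling -0.74, 95% limits -1.48 and -0.03, and adjusted p = 0.602 by that exact test). With no scaling, or scaled by the summed contacts of the lists, 1 of the 12 pairs was called, as lower in T30. Calls over all pairs were then also more numerous, 47 (3.38%) with no scaling and 133 (9.58%) with summed contacts.

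Regulators and pathway partners of the transporters were described in the same way. Of 12 genes of sterol and bile regulation, 3 were at a loop in T0 against 8 in T30, where 27.2% and 32.1% of all genes were. RXRA, the heterodimer partner of liver X receptors, had none in T0 and 12 loops with 190 contacts in T30, and it was the only gene of that list with at least 3 more partners; NR1H3, which encodes a liver X receptor, had 0 and 1. Of 10 genes of xenobiotic response, 3 had a loop in each library, NR1I3 with 2 and 5 loops and AHR with 3 and 0, while NR1I2 and CYP3A4 had none. Of 10 genes of antigen processing, 3 were at a loop in T0 against 6 in T30. Of these, ERAP1 and ERAP2, neighbouring peptidase genes, had 0 and 2 loops each, and B2M and TAPBP had 3 in T0 and 1 in T30. The T30 loops of ERAP1 and of ERAP2 held 23 contacts each time, so the same loops may be counted at both. At least 3 more partners in T30 were also found at NR1I3, ERAP1 and ERAP2, and at least 3 fewer at B2M and TAPBP. Over all genes the shares were 5.6% and 2.82%. The T0 counts of all 3 lists, and the T30 count of the xenobiotic list, were within about 1 gene of the background.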

How the data were processed

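The 2 libraries analysed, of 23 samples in the series, were HiChIP lists labelled T0 and T30, 1 library each; the other samples were not analysed here. Per the deposited files' names, the authors kept loops below a q-value of 0.05 and merged near contacts. Bowtie and the builds hg38 and GRCh38 are named in the submitters' processing notes, with no role or version. Not given in the sources used here are the loop caller's settings and whether replicates were pooled. Per the file headers, each deposited loop carries a raw contact count for its pair of 5 kb bins. The headers name the deposited p-value and q-value as bias-corrected. A fraction per cluster, also deposited, entered no result. Coordinates were written counting from 1.

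Genes came from RefSeq (GRCh38.p14), protein-coding genes on assembled chromosomes. Genes were widened by 10 kb; partners are distinct bins at the other end, including bins within the same gene. Genes with at least 5 loops in a list, or a difference of at least 3 partners, were described in full, with the 5 strongest loops per list. Loops were paired across lists by overlapping merged ranges, nearest bins first. Shares and ratios have exact binomial intervals at 95%. No replicate test was possible. The members, gene lists and settings were chosen with earlier results of these data known. The counting was checked on placed loops and the pairing on copied loops, with known answers. The contact test was run on simulated counts, with no pass mark set. The regional counts, length classes, bin tallies, start-site counts and order of pairing were chosen after the data were seen. Scripts ran under Python 3.11.15 with scipy 1.17.1, pandas 2.3.3 and numpy 2.4.6, and figures were drawn with matplotlib 3.10.9.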

Additional observations from a re-analysis of the deposited data

How the results depend on the processing

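With 1 library per label and list lengths that differ, the counts depend on the lists' stringency, the flanks and the chromosome 3 locus. With a q-value under 0.01, 15 members had a loop in T30 in place of 24, and the distinct loops there were 63 in place of 97. With genes not widened, 4 members had at least 3 more partners in place of 7. With genes widened by 25 kb, 4 members had at least 3 fewer in place of 1, though ABCC6 drew on loops of ABCC1. T0 contacts were then 1649 in place of 1015. Without ABCC5 and ABCF3, chosen after the data were seen, T0 contacts were 657, T30 contacts 768 in place of 1510, and T30 loops 55. With identical bins required, 7.22% of T30 member loops were in both lists in place of 13.4%; with both bins within 10 kb it was 32.0%, and 42.9% in T0 in place of 19.6%. Of the pairs of loops in both lists, 1 was called in place of 0 with no scaling, and 1 with summed contacts, while calls over all pairs went from 23 to 47 and 133. The partner difference changed sign for 1 of the 46 genes, ABCA3, with a q-value under 0.01 and with 25 kb of widening. Differences at ABCC3, ABCC8, ABCC12 and ABCF3 came under 3 in 1 or more settings, and that at ABCB9 reached 3 with a q-value under 0.01. The difference of 5 at ABCA2 was 9 with 25 kb of widening, and that of 7 at ABCC11 and ABCC12 was 4 with at least 10 contacts per loop. The other 80 values of the family stayed within 1.5 times the main count, or within its counting interval where it has one. No paired analysis was possible because each label has 1 library. The depth of the libraries is unknown, so an unlisted loop is not shown to be absent.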
